A study of Mus musculus with 17 samples.

Results

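The genes described here encode the enzymes, transporters and regulators of glycolysis and lactate handling, together with the hypoxia-inducible factor (HIF) system and a set of its known targets. They were chosen by symbol from a fixed list of 36 genes, with the brightest probe set (by mean over all arrays) kept where a gene had several. Of these 36 genes, 34 were measured by a probe set that named 1 gene, 22 of them in glycolysis and lactate handling and 12 in the hypoxia response, out of 19938 genes tested. Gpi1 and Eno1 had no such probe set and are not analysed here. Hk1, Pgk1, Pkm, Pgam1, Bnip3, Bnip3l and Ldhb had more than 1 such probe set. Whether the brightest of these reads the named gene alone was not tested.

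The series holds 17 arrays (Affymetrix Mouse Gene 1.0 ST) hybridized with RNA of 3134 cells, which the labels call mouse mammary epithelial, in 4 derivatives. All 4 carried a transactivator that tetracycline holds silent, and 3 also carried a Flag-tagged dominant-negative form of a chromatin remodeling ATPase: Brg1 (gene Smarca4), Chd4 or Snf2h (gene Smarca5). Stocks were kept in 5 µg/ml tetracycline, and cells were then plated for 48 h with the drug (repressed) or without it (induced), in medium whose serum had been treated with charcoal and dextran. Induced control cells therefore made the transactivator alone, and induced dnBrg1, dnChd4 and dnSnf2h cells made it together with the dominant-negative protein, so drug withdrawal and the transactivator are part of every induction. There were 2 control repressed and 3 control induced arrays, and 2 repressed and 2 induced arrays for each dominant-negative line. The labels do not say whether replicates were separate cultures or how many clones stand behind a line. A p-value therefore reflects the spread of arrays within groups, pooled over all groups of the fit, and possibly a technical one. A difference between lines cannot be told apart from a difference between clones. The labels name no difference in oxygen between the groups.

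Glycolysis converts glucose to pyruvate in a fixed series of enzyme steps, and lactate dehydrogenase then turns pyruvate into lactate while restoring the cofactor that the pathway needs. HIF-1 is a transcription factor whose alpha subunit is hydroxylated by the prolyl hydroxylases of the Egln family when oxygen is present and is then destroyed through the Vhl ubiquitin ligase. When oxygen is low it persists and raises the genes of most glycolytic enzymes, along with genes for blood vessel growth, mitochondrial turnover and collagen modification. HIF binds a short core sequence, and Brg1-type SWI/SNF complexes, Chd4-containing NuRD complexes and Snf2h-containing ISWI complexes move or remodel nucleosomes at promoters and enhancers.

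The arrays of the control line went against their labels, and results that rest on them are given with that in view. Across all genes, control repressed 1 correlated at r = 0.9953 and 0.9952 with control induced 2 and 3, control repressed 2 at 0.9945 with control induced 1, and the 2 control repressed arrays at 0.9747 with each other. Over the 34 genes described here, the mean absolute log2 difference between the control repressed arrays was 0.509, against 0.069 to 0.172 between replicates of the dominant-negative groups. For that reason the inductions and the comparisons among dominant-negative lines were tested on the 12 dominant-negative arrays, and comparisons with the control line are reported on all 17 arrays and on 15 arrays, without control repressed 1 and control induced 1. The Chd4 probe set rose from 10.56 and 10.35 to 12.27 and 12.27 in dnChd4 cells, while Smarca4 in dnBrg1 cells (9.66 and 9.46, then 9.61 and 9.73) and Smarca5 in dnSnf2h cells (9.69 and 9.81, then 9.43 and 9.59) overlapped or read lower. Of 12 mammary epithelial markers, 4 (Krt19, Epcam, Esrp1 and Ocln) lay among the dimmest 30% of genes. The medians of the others ran from 5.07 (Cldn7) to 6.35 (the keratin gene Krt8) and 9.49 (the junction gene Tjp1). Of 10 fibroblast or mesenchymal markers, Fap was among the dimmest 30%, and the medians of the others ran from 6.14 (Thy1) to 12.71 (Vim). Col3a1, Col1a1 and Col1a2 had medians of 6.95, 6.97 and 12.03. These levels belong to different probe sets and were not compared between lists. Of 6 macrophage markers, 4 (Ptprc, Adgre1, Csf1r and Itgam) were among the dimmest 30%, while Lyz2 ran from 4.54 to 7.59 and Cd68 from 5.54 to 6.86.

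Promoter stretches are shown for 7 genes whose signal moved at induction, because they carry the HIF core sequence close to the start site, and because the genes that share it did not move in 1 direction. Sequences are from RefSeq on mouse build GRCm38.p6 and are written 5′ to 3′ on the strand of the gene. Capitals mark every match to the core, ACGTG or GCGTG, on either strand, so that a match on the opposite strand reads CACGT or CACGC and the palindrome CACGTG holds a match on both strands. CACGTG is also the E-box that Myc and related factors bind, so these 2 motifs overlap.
Eno3, chr11:70657016-70657075, plus strand: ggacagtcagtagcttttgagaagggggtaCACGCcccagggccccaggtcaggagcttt
Bnip3, chr7:138909527-138909636, minus strand: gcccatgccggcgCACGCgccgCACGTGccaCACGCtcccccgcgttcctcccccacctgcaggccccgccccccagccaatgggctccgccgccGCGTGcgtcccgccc
P4ha1, chr10:59323126-59323185, plus strand: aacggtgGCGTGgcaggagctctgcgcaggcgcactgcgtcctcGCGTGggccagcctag
P4ha2, chr11:54100804-54100873, plus strand: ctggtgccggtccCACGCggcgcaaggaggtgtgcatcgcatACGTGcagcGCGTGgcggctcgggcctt
Ldha, chr7:46845649-46845778, plus strand: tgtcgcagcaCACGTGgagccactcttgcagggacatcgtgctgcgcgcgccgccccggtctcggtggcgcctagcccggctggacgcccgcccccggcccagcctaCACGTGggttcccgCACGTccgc
Hk2, chr6:82774485-82774529, minus strand: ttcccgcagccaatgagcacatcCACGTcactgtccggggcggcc
Pfkp, chr13:6648787-6648916, minus strand: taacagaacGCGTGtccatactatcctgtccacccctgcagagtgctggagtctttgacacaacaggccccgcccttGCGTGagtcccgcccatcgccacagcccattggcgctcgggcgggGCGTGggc

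The table of promoters held 43 start-site windows for 31 of the 34 genes, and Ndrg1, Slc2a3 and Bnip3l were not in it. In the 250 bases before the start site, 35 of 43 windows (81.4%) held ACGTG or GCGTG on either strand, against 12679 of 32851 windows (38.6%) over all genes in the table. ACGTG was in 53.5% of the windows of the list and in 16.6% of all windows, and GCGTG in 53.5% and 28.2%. CACGTG was in 6 windows of the list (14%) and in 6.02% of all windows. By gene, 29 of 31 had the core in at least 1 window, and Tpi1 and Eno2 had none in theirs. Some genes had several windows, and the share by gene was not counted over all genes. The windows were not matched for base composition, and a match describes the letters, not occupancy. The core was present both in genes whose signal rose at induction, such as P4ha2 in dnChd4 cells, and in genes whose signal fell, such as Hk2 in the same cells.

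Signals are given as deposited, on a log2 scale, and a change is induced minus repressed on that scale, so that 1 unit is a doubling of signal. Levels are compared only within a probe set. In the plot of all members by array, the dominant-negative inductions moved glycolytic and hypoxia genes in both directions.

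**Figure D1:**
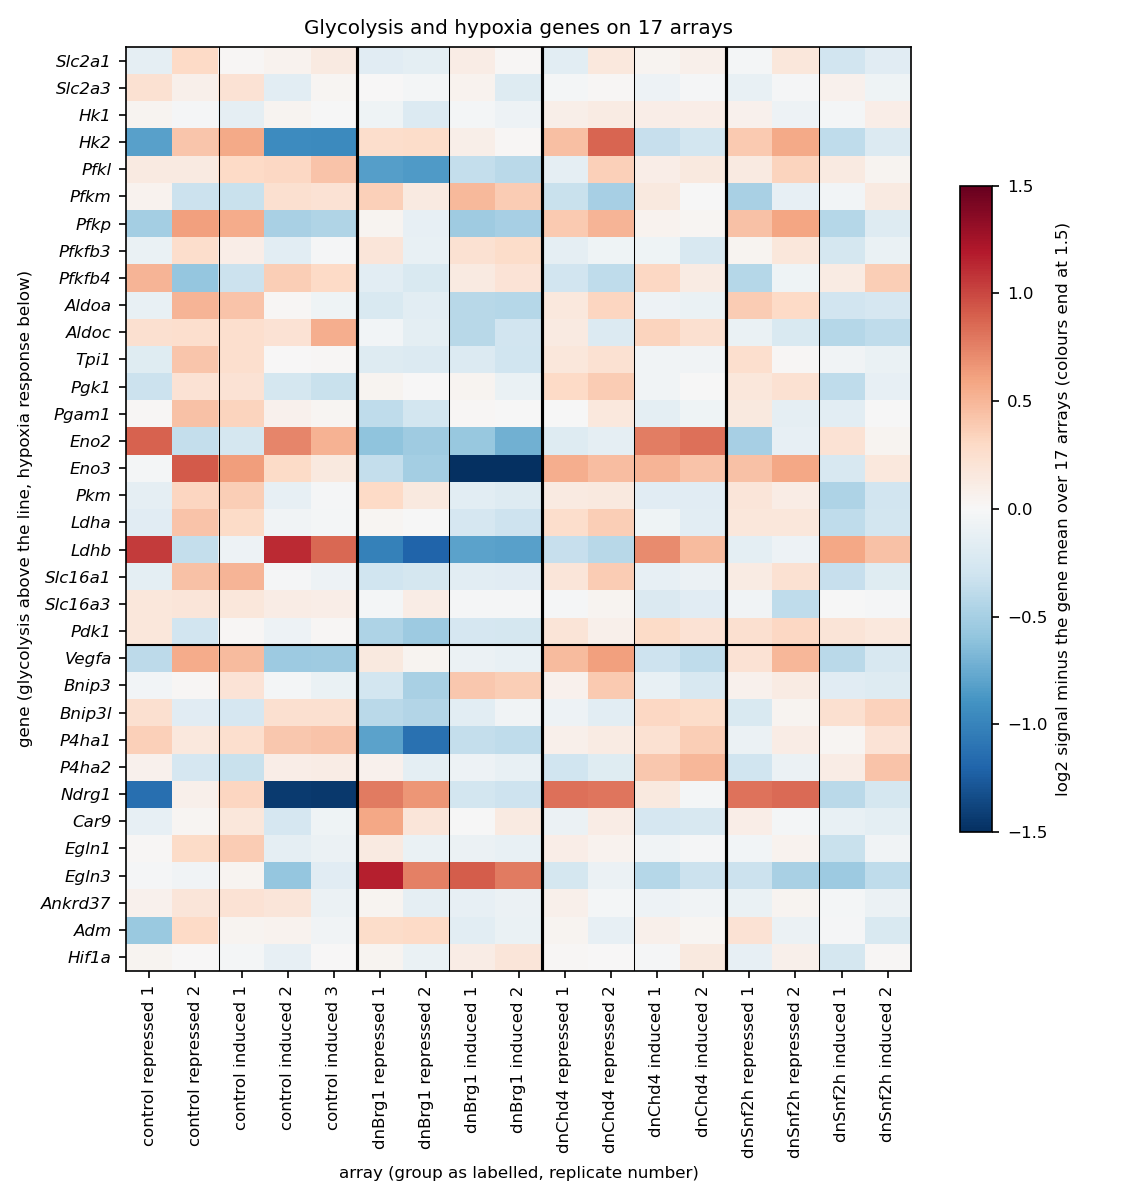
Signal of 34 genes (rows, glycolysis above the line and hypoxia response below) on 17 arrays (columns, grouped as labelled), as log2 signal minus the mean of the gene over the 17 arrays, with colours ending at 1.5. Control repressed 1 resembles control induced 2 and 3, Ndrg1 and Hk2 are lower in the induced dnChd4 and dnSnf2h arrays, and Eno3 is lowest in the dnBrg1 induced arrays.

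After dnBrg1 induction, 9 of the 34 genes (26.5%) passed the threshold of an adjusted p under 0.05, where 14.2% of all genes passed. Of the 9, 3 were higher (8.01% of all genes) and 6 lower (6.22% of all genes). The higher genes were Bnip3, P4ha1 and Pfkl, and the lower genes were Eno3, Ndrg1, Pfkp, Adm, Pkm and Ldha. After dnChd4 induction 16 passed (47.1%), against 18% of all genes, with 6 higher (11.2% of all genes) and 10 lower (6.82%). After dnSnf2h induction 15 passed (44.1%), against 17.5% of all genes, with 5 higher (9.2%) and 10 lower (8.34%). All 34 genes lay above the dimmest 30% of genes. The shares of all genes, here and in the other comparisons, include the dim genes and were not matched for signal level. The median change of the 34 genes was -0.05, -0.07 and -0.18 in dnBrg1, dnChd4 and dnSnf2h cells, and the median of all genes was -0.03, -0.03 and -0.01. The list held falls and rises side by side, with 20, 21 and 24 genes below 0 and 14, 13 and 10 above.

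Pfkp, Pkm, Ldha and Ndrg1 fell in all 3 dominant-negative lines, which is 4 of 34 genes where 3.06% of all genes did so. Of these, Ndrg1 alone passed in all 3 with each array left out in turn. No gene of the list rose in all 3, where 4.62% of all genes did. In at least 1 of the inductions 20 of the 34 genes passed, against 27% of all genes, and 11 of them did so with a change of at least 1.5-fold, against 10.3%. Bnip3 was the 1 gene that passed in opposite directions, and the share of all genes that did so is not given here. Its dnChd4 call was lost with only the groups of the comparison and with its second probe set. The inductions of dnChd4 and dnSnf2h changed 14 of the genes in the same direction. Hk2, Vegfa, Ndrg1, Ldha, Pfkp, Slc16a1, Pgk1, Aldoa and Pkm fell in both, where 5% of all genes did, and Ldhb, Eno2, P4ha2, Pfkfb4 and Bnip3l rose in both, where 7.01% did.

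These calls depend on the arrays that set the error. When the control arrays were added to the fit, 2 of the 9 dnBrg1 calls passed (Eno3 and Bnip3), against 0.341% of all genes, and none of the dnChd4 or dnSnf2h calls did, against 0.0953% and 0.00502% of all genes. The changes themselves did not depend on that choice, since each is the difference of the same group means.

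**Figure D2:**
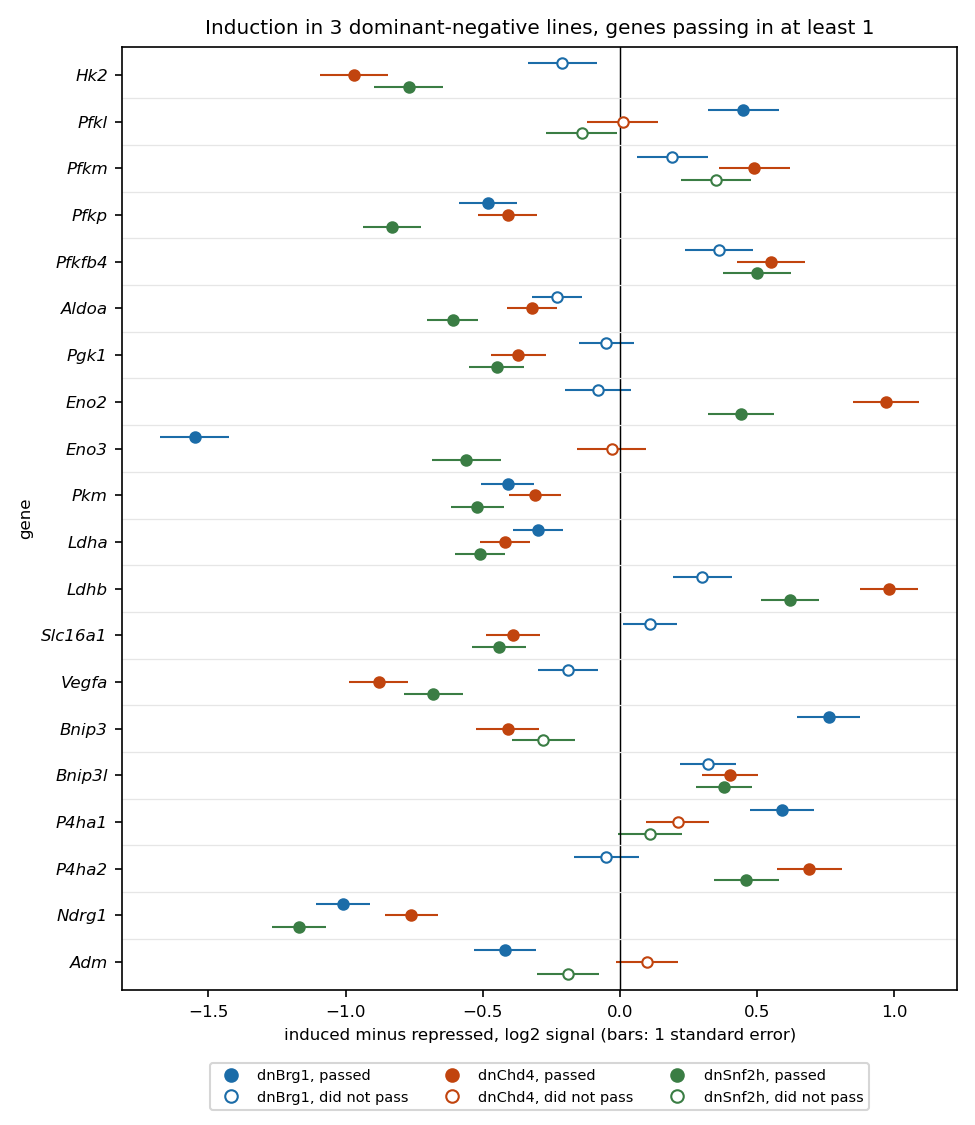
Change at induction (induced minus repressed, log2 signal, bars of 1 standard error) in dnBrg1, dnChd4 and dnSnf2h cells for the 20 genes that passed in at least 1 of the lines, with filled points for an adjusted p under 0.05 on the 12 dominant-negative arrays. Ndrg1, Pfkp, Pkm and Ldha lie below 0 in all 3 lines, while Eno2, Ldhb and P4ha2 lie well above 0 in dnChd4 cells.

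Hexokinases trap glucose in the cell by phosphorylating it, and Hk2 is the inducible form. Hk2 read 8.59 and 9.01 in repressed dnChd4 cells and 7.79 and 7.86 in induced ones, so the arrays did not overlap. It fell by 0.97 (SE 0.125; limma adjusted p = 7.93e-05). In dnSnf2h cells it read 8.53 and 8.71 when repressed and 7.76 and 7.94 when induced, and fell by 0.77 (adjusted p = 0.000588). In dnBrg1 cells the values were 8.40 and 8.42, then 8.23 and 8.16, a change of -0.21 that did not pass (adjusted p = 0.337). The constitutive Hk1 and the glucose transporters Slc2a1 and Slc2a3 passed in none of the lines: Slc2a1, the main basal glucose transporter, changed by 0.22, 0.06 and -0.30 in dnBrg1, dnChd4 and dnSnf2h cells.

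Phosphofructokinase commits sugar to glycolysis, and has platelet (Pfkp), liver (Pfkl) and muscle (Pfkm) subunits. Pfkp read 8.38 and 8.21 in repressed and 7.80 and 7.84 in induced dnBrg1 cells, 8.73 and 8.85 then 8.39 and 8.37 in dnChd4 cells, and 8.78 and 8.93 then 7.91 and 8.15 in dnSnf2h cells. The induced arrays lay below the repressed ones in every line, by 0.48 (adjusted p = 0.0069), 0.41 (adjusted p = 0.0139) and 0.83 (adjusted p = 9.55e-05). Pfkl rose by 0.45 in dnBrg1 cells (adjusted p = 0.0293), from 8.21 and 8.19 to 8.68 and 8.63, and changed by 0.01 and -0.14 in the other lines. Pfkm rose by 0.49 in dnChd4 cells (adjusted p = 0.0143). Its changes of 0.19 and 0.35 in dnBrg1 and dnSnf2h cells did not pass. Pfkfb4, which makes and removes the fructose bisphosphate that activates phosphofructokinase, rose by 0.55 in dnChd4 cells (adjusted p = 0.00546) and 0.50 in dnSnf2h cells (adjusted p = 0.0109), and changed by 0.36 in dnBrg1 cells (adjusted p = 0.0708).

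Aldoa splits fructose bisphosphate into triose phosphates. It read 11.83 and 11.74 in repressed and 11.16 and 11.19 in induced dnSnf2h cells, a fall of 0.61 (SE 0.0917; adjusted p = 0.000325), and 11.60 and 11.77 then 11.37 and 11.35 in dnChd4 cells, a fall of 0.32 (adjusted p = 0.0224). In dnBrg1 cells it read 11.22 and 11.29 then 11.03 and 11.02, a change of -0.23 that did not pass (adjusted p = 0.114). Pgk1, the first enzyme of the pathway to make ATP, fell by 0.37 in dnChd4 cells (adjusted p = 0.0172) and 0.45 in dnSnf2h cells (adjusted p = 0.00533), with -0.05 in dnBrg1 cells. Its other probe sets gave -0.37 and -0.35 in dnChd4 cells (adjusted p = 0.0458 and 0.0538), so 1 did not pass there. In dnSnf2h cells they gave -0.45 and -0.44 (adjusted p = 0.0211 and 0.0215). Pkm, the pyruvate kinase that makes pyruvate, fell by 0.41, 0.31 and 0.52 in dnBrg1, dnChd4 and dnSnf2h cells (adjusted p = 0.00985, 0.0348 and 0.00138). A second Pkm probe set gave -0.31, -0.27 and -0.50 and passed in dnSnf2h cells alone (adjusted p = 0.212, 0.256 and 0.035), so the calls in dnBrg1 and dnChd4 cells rest on 1 probe set. The dnChd4 calls of Aldoa, Pgk1 and Pkm were each lost with quantile normalization and with median centring.

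The enolases make phosphoenolpyruvate, and the neuronal form Eno2 and the muscle form Eno3 moved apart. Eno3 read 9.13 and 8.97 in repressed and 7.41 and 7.60 in induced dnBrg1 cells, and the induced arrays were the lowest of all 17. It fell by 1.55 (SE 0.125; adjusted p = 3.19e-06), and by 0.56 in dnSnf2h cells (9.93 and 10.06, then 9.24 and 9.64; adjusted p = 0.0058). In dnChd4 cells it read 10.03 and 9.95, then 10.00 and 9.91, so the groups overlapped. Eno2 took the other course: it rose by 0.97 in dnChd4 cells, from 6.31 and 6.37 to 7.28 and 7.34 (adjusted p = 5.63e-05). In dnSnf2h cells it rose by 0.44, from 6.01 and 6.39 to 6.73 and 6.55 (adjusted p = 0.0192), and in dnBrg1 cells it read 5.91 and 5.98, then 5.94 and 5.79, a change of -0.08. Of the 6 skeletal muscle markers, Myh1 and Myh4 were among the dimmest 30% of genes, and Acta1 and Ckm had medians of 6.35 and 5.78.

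Lactate dehydrogenase has an A subunit (Ldha), known as a HIF target, and a B subunit (Ldhb). Ldha read 12 and 11.97 in repressed and 11.72 and 11.66 in induced dnBrg1 cells, 12.24 and 12.34 then 11.91 and 11.82 in dnChd4 cells, and 12.15 and 12.15 then 11.59 and 11.70 in dnSnf2h cells. It fell by 0.30 (adjusted p = 0.0394), 0.42 (adjusted p = 0.00414) and 0.51 (adjusted p = 0.00113). The dnBrg1 call of Ldha was lost with only the groups of the comparison, the replicate block, quantile normalization or median centring. Ldhb went the other way. It rose by 0.98 in dnChd4 cells (7.09 and 7.02, then 8.15 and 7.91; adjusted p = 2.09e-05) and by 0.62 in dnSnf2h cells (7.29 and 7.36, then 8.02 and 7.87; adjusted p = 0.000905), and read 6.42 and 6.24, then 6.63 and 6.62, in dnBrg1 cells, where 0.30 did not pass (adjusted p = 0.085). The second Ldhb probe set gave -0.19, 0.45 and 0.19 in dnBrg1, dnChd4 and dnSnf2h cells and passed in none. The rise of Ldhb thus rests on 1 of its 2 probe sets, and which of them reads Ldhb alone was not tested. Slc16a1, the monocarboxylate transporter that moves lactate, fell by 0.39 in dnChd4 cells (adjusted p = 0.0116) and 0.44 in dnSnf2h cells (adjusted p = 0.00566), and changed by 0.11 in dnBrg1 cells. The lactate exporter Slc16a3 and the pyruvate dehydrogenase kinase Pdk1 passed in none.

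**Figure D3:**
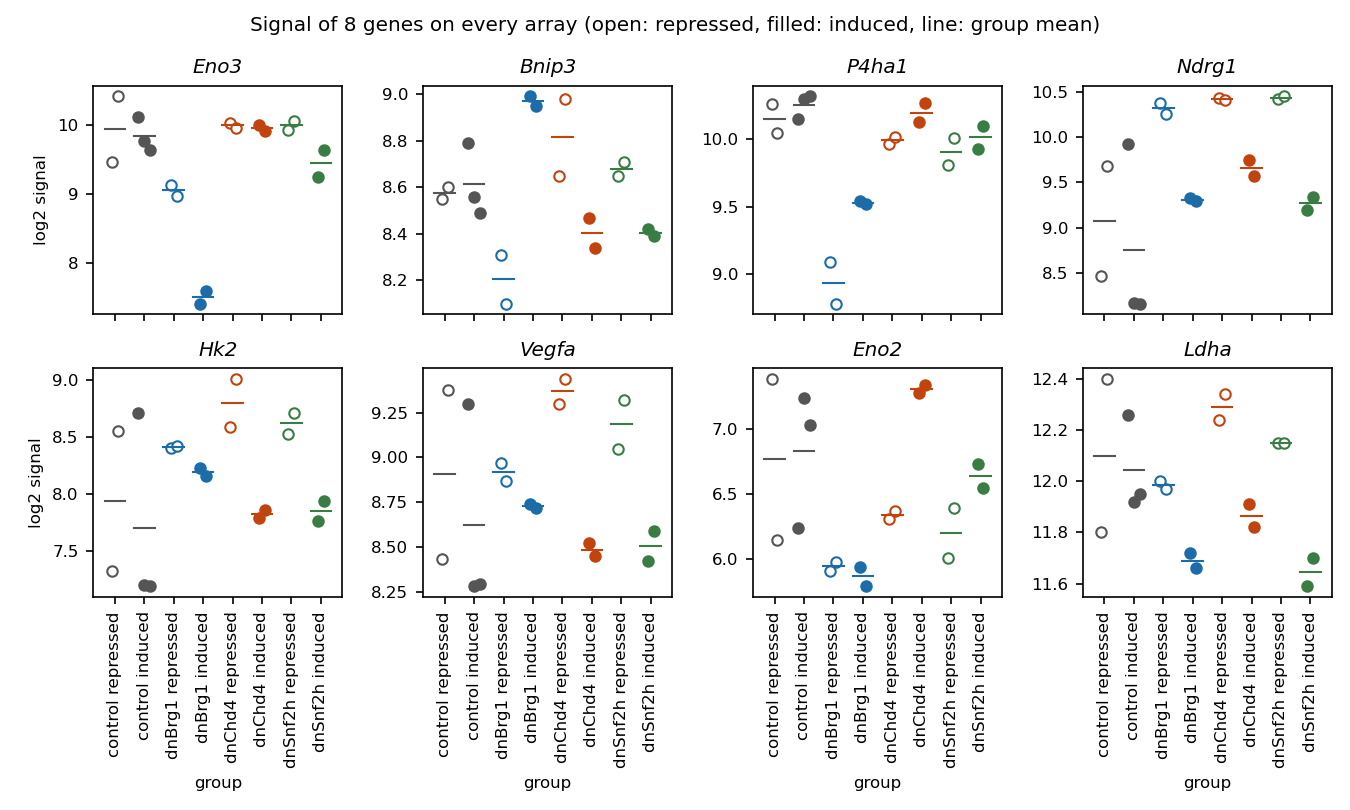
Log2 signal of 8 genes on every array, by labelled group (open points repressed, filled points induced, lines the group mean). The dnBrg1 induced arrays are the lowest for Eno3 and among the highest for Bnip3, and the control groups are split for Ndrg1, Hk2 and Vegfa, where each labelled group holds a high and a low array.

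Among HIF targets, Vegfa, the main growth factor for blood vessels, fell by 0.88 in dnChd4 cells (SE 0.109; adjusted p = 5.49e-05), from 9.30 and 9.44 to 8.52 and 8.45. In dnSnf2h cells it fell by 0.68 (adjusted p = 0.000499), from 9.05 and 9.32 to 8.42 and 8.59. In dnBrg1 cells it read 8.97 and 8.87, then 8.74 and 8.72, a change of -0.19 that did not pass (adjusted p = 0.314). Ndrg1, a stress-response gene strongly raised by hypoxia in many cells, fell in all 3 lines: by 1.01 in dnBrg1 cells (10.38 and 10.26, then 9.33 and 9.29; adjusted p = 1.29e-05), by 0.76 in dnChd4 cells (10.43 and 10.41, then 9.75 and 9.57; adjusted p = 7.61e-05) and by 1.17 in dnSnf2h cells (10.42 and 10.45, then 9.20 and 9.34; adjusted p = 2.59e-06). The repressed arrays of all 3 lines sat between 10.26 and 10.45, and the highest induced array of these lines read 9.75.

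Bnip3 and Bnip3l encode mitophagy receptors. Bnip3 rose by 0.76 in dnBrg1 cells (SE 0.115; adjusted p = 0.000428), from 8.31 and 8.10 to 8.99 and 8.95, so the line went from the lowest Bnip3 signals of the 17 arrays to among the highest. In dnChd4 cells it fell by 0.41 (8.65 and 8.98, then 8.47 and 8.34; adjusted p = 0.019), and in dnSnf2h cells it read 8.65 and 8.71, then 8.42 and 8.39, a change of -0.28 (adjusted p = 0.12). The second Bnip3 probe set gave 0.55, -0.30 and -0.12 in dnBrg1, dnChd4 and dnSnf2h cells, the same directions, and passed in dnBrg1 cells alone. Bnip3l rose by 0.40 in dnChd4 cells (adjusted p = 0.0115) and 0.38 in dnSnf2h cells (adjusted p = 0.0169), with 0.32 in dnBrg1 cells (adjusted p = 0.0508).

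P4ha1 and P4ha2 are the catalytic subunits of collagen prolyl 4-hydroxylase. P4ha1 rose by 0.59 in dnBrg1 cells (SE 0.116; adjusted p = 0.00294), from 9.09 and 8.78 to 9.54 and 9.52, and its changes of 0.21 and 0.11 in dnChd4 and dnSnf2h cells did not pass. P4ha2 rose by 0.69 in dnChd4 cells, from 7.91 and 8.03 to 8.61 and 8.70 (adjusted p = 0.000869), and by 0.46 in dnSnf2h cells, from 7.91 and 8.12 to 8.32 and 8.63 (adjusted p = 0.014). In dnBrg1 cells P4ha2 read 8.27 and 8.06, then 8.13 and 8.10. Adm, which encodes the vasodilator peptide adrenomedullin, fell by 0.42 in dnBrg1 cells (adjusted p = 0.0214), and the other lines gave 0.10 and -0.19.

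The 14 genes that passed in no induction had changes between -0.32 and 0.33 and adjusted p-values of 0.063 and above. They included Hif1a, the oxygen-regulated subunit itself, which lay between 9.27 and 9.71 on all 17 arrays and changed by 0.18, 0.05 and -0.10 in dnBrg1, dnChd4 and dnSnf2h cells, and the HIF prolyl hydroxylases Egln1 (-0.12, -0.12 and -0.21) and Egln3 (-0.11, -0.20 and -0.05). Car9, a surface carbonic anhydrase used as a hypoxia marker, changed by -0.32, -0.27 and -0.17. These arrays measure RNA, and HIF-1 alpha protein was not measured.

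Other genes of the pathways followed no single direction. Among 15 further genes of glycolysis, those that passed were all higher: 2 in dnBrg1, 4 in dnChd4 and 3 in dnSnf2h cells, with a median change of 0.08, -0.03 and 0.02. These are 13.3%, 26.7% and 20% of the 15, where 14.2%, 18% and 17.5% of all genes passed in either direction and 8.01%, 11.2% and 9.2% were higher. Pfkfb2, another fructose bisphosphate enzyme, rose by 0.55, 0.50 and 0.47 in dnBrg1, dnChd4 and dnSnf2h cells, and the intracellular glucose transporter Slc2a8 by 0.33, 0.38 and 0.40. Gpd1l, a relative of glycerol phosphate dehydrogenase, rose by 0.39 and 0.42 in dnChd4 and dnSnf2h cells, and 0.22 did not pass in dnBrg1 cells. Of 17 genes of pyruvate handling, 4 rose and 3 fell in dnBrg1 cells, 4 rose and 1 fell in dnChd4 cells, and 2 rose and 3 fell in dnSnf2h cells (41.2%, 29.4% and 29.4% in all). Pyruvate carboxylase (Pcx) rose by 1.36, 1.03 and 0.76, the pyruvate dehydrogenase kinase Pdk2 rose by 0.67, 1.17 and 0.93, and the alanine transaminase Gpt2 fell by 0.60, 0.95 and 0.89.

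Of 15 genes of the pentose phosphate pathway and glycogen, 2, 4 and 1 rose and 1, 2 and 2 fell in dnBrg1, dnChd4 and dnSnf2h cells (20%, 40% and 20% in all). Transketolase (Tkt) fell by 0.35, 0.49 and 0.60, and transaldolase (Taldo1) rose by 0.32, 0.49 and 0.28. The glycogen branching enzyme Gbe1 rose by 0.66 in dnBrg1 cells, and 0.22 and 0.18 did not pass in the others. Of 14 further genes of the HIF machinery, 4, 2 and 2 rose and 1, 0 and 0 fell, which is 35.7%, 14.3% and 14.3%, and in dnChd4 and dnSnf2h cells no more than the 18% and 17.5% of all genes. Hif1an, which blocks the binding of HIF to its co-activators, rose by 0.60, 0.72 and 0.70, and Vhl rose by 0.32, 0.60 and 0.56. Rbx1, a subunit of the ubiquitin ligase that holds Vhl, rose by 0.34 in dnBrg1 cells, and 0.27 and 0.18 did not pass. Of 34 further hypoxia targets, 7, 3 and 4 rose and 6, 10 and 11 fell, with a median change of -0.08, -0.05 and -0.16 (38.2%, 38.2% and 44.1% passed). Lox, which cross-links collagen, fell by 1.16, 0.91 and 1.19. Ddit4, an inhibitor of mTORC1, fell by 0.80 in dnChd4 and 1.11 in dnSnf2h cells, and -0.05 did not pass in dnBrg1 cells. Plod1, a collagen lysyl hydroxylase, rose by 0.74, 0.75 and 0.46. Of 6 genes of glucose sensing and glycolytic control, 1, 2 and 1 rose and 1 fell in each line, and that gene was Myc, a regulator of glycolytic genes, at -0.70, -1.16 and -1.29. Mlx rose by 0.49, 0.39 and 0.30, and Txnip, a glucose-responsive gene, rose by 0.96 in dnChd4 cells, while -0.33 and 0.41 did not pass in dnBrg1 and dnSnf2h cells.

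Markers of other cell types moved with some of these inductions. Over all genes, 6.22% fell at dnBrg1 and 8.34% at dnSnf2h induction, and 11.2% rose and 6.82% fell at dnChd4 induction. The 10 fibroblast or mesenchymal markers gave 6 falls at dnBrg1 induction, 4 at dnSnf2h induction, and 1 rise and 1 fall at dnChd4 induction. Their mean log2 level went from 8.44 and 8.45 to between 7.86 and 7.94 in dnBrg1 cells, from between 8.51 and 8.67 to between 8.49 and 8.52 in dnChd4 cells, and from between 8.58 and 8.61 to between 8.19 and 8.43 in dnSnf2h cells. Of those markers 1, Fap, was among the dimmest 30% of genes. Among 6 macrophage markers, Lyz2 rose by 1.34, 1.74 and 1.36 in dnBrg1, dnChd4 and dnSnf2h cells, Cd68 fell by 0.48 in dnBrg1 cells and rose by 1.03 in dnChd4 cells, and the other 4 passed in none. The mean log2 level of that list went from between 4.89 and 4.92 to between 4.99 and 5.03 in dnBrg1 cells, from 4.58 to between 4.96 and 5.04 in dnChd4 cells, and from between 4.68 and 4.81 to between 4.95 and 5.03 in dnSnf2h cells. Among 6 myoepithelial or basal markers, the keratin Krt14 fell by 1.29, 1.15 and 1.29, the smooth muscle actin Acta2 rose by 2.56 in dnChd4 and 2.32 in dnSnf2h cells, and the other 4 passed in none. The mean level of these went from between 5.69 and 5.74 to between 5.39 and 5.41 in dnBrg1 cells, from between 5.86 and 5.93 to between 6.03 and 6.18 in dnChd4 cells, and from between 5.85 and 5.87 to between 5.96 and 6.05 in dnSnf2h cells. None of the 4 endothelial markers passed at induction. The part of these markers in the changes above was not tested, and in bulk samples fewer cells of a type and less RNA per cell cannot be told apart.

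Several calls were lost when 1 array was left out. At dnBrg1 induction, 4 of the 9 calls (Eno3, Bnip3, P4ha1 and Ndrg1) held with each of the 12 arrays left out in turn, and the count was 4 without dnBrg1 repressed 1 or induced 1 and 5 without dnBrg1 induced 2. Pfkl and Adm were lost without any 1 of the 4 dnBrg1 arrays (adjusted p up to 0.169 and 0.15), Pfkp without repressed 1 or induced 1 (up to 0.0681), Pkm without repressed 1 or either induced array (up to 0.0894), and Ldha without any 1 of the dnBrg1 or dnChd4 arrays (up to 0.245). At dnChd4 induction 6 of 16 calls held throughout (Hk2, Eno2, Ldhb, Vegfa, P4ha2 and Ndrg1), and the count was 6 without dnChd4 repressed 2, 7 without induced 1 and 8 without induced 2. The other 10 were each lost without dnChd4 repressed 2, all but Ldha without induced 1, all but Pfkm and Pfkfb4 without induced 2, and Pgk1 and Pkm without repressed 1. Pkm was also lost without either induced dnBrg1 array, and the highest adjusted p with 1 array left out was 0.289, for Bnip3. At dnSnf2h induction 8 of 15 held throughout (Hk2, Pfkp, Aldoa, Pkm, Ldha, Ldhb, Vegfa and Ndrg1). Pgk1, Eno3 and Slc16a1 were lost without induced 1 (adjusted p up to 0.0715, 0.0878 and 0.0642), Eno2 without repressed 1 or induced 1 (up to 0.154), and Pfkfb4, Bnip3l and P4ha2 without repressed 1 or induced 2 (up to 0.109, 0.115 and 0.151).

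Whether lines differed in their response was tested on the difference of the changes. The dnBrg1 and dnChd4 inductions differed for 6 of the 34 genes (2 higher and 4 lower in dnBrg1, 17.6%), against 1.27% of all genes. Bnip3 (difference 1.18, SE 0.162; adjusted p = 0.00122), Eno3 (-1.51, SE 0.177; adjusted p = 0.000289) and Eno2 (-1.05, SE 0.17; adjusted p = 0.00461) differed with each array left out in turn. Vegfa (0.69, adjusted p = 0.0416), Ldhb (-0.68, adjusted p = 0.042) and P4ha2 (-0.74, adjusted p = 0.0484) lay close to the threshold. Vegfa and P4ha2 were lost without any 1 of the 8 arrays of the comparison (adjusted p up to 0.24 and 0.21), and Ldhb without 6 of them, namely all but dnBrg1 repressed 2 and dnChd4 induced 2 (up to 0.282). The second probe set of Ldhb did not pass. The count was 3 without dnBrg1 repressed 1, dnBrg1 induced 1, dnBrg1 induced 2, dnChd4 repressed 2 or dnChd4 induced 1. On all 17 arrays Bnip3 was the 1 gene that passed, against 0.13% of all genes.

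The dnBrg1 and dnSnf2h inductions differed for 2 genes (5.88%), against 0.632% of all genes: Bnip3 by 1.04 (SE 0.162; adjusted p = 0.00621) and Eno3 by -0.99 (SE 0.177; adjusted p = 0.0159). Eno3 was lost without dnBrg1 repressed 1, dnBrg1 induced 1 or dnSnf2h induced 2 (adjusted p up to 0.121), which left a count of 1, and the second probe set of Bnip3 did not pass here. On all 17 arrays neither passed, where 0.0351% of all genes did. The dnChd4 and dnSnf2h inductions differed for 0 of the 34 genes in limma, with 9 below 0.05 before adjustment, against 0.13% of all genes, and the aldolase Aldoc came closest (0.57, SE 0.162; adjusted p = 0.371). Without dnSnf2h repressed 1 the count was 1. These comparisons share arrays with one another, so their values are given side by side and not as independent results.

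The repressed lines differed before induction. In repressed cells 18 of the 34 genes differed between dnBrg1 and dnChd4, 2 higher and 16 lower in dnBrg1 (52.9%), against 14.4% of all genes, and the median was -0.27 where the median of all genes was 0.01. Between dnBrg1 and dnSnf2h 13 genes differed, 2 higher and 11 lower in dnBrg1 (38.2%), against 14.3% of all genes, with a median of -0.17 where that of all genes was 0.01. Both comparisons use the same 2 repressed dnBrg1 arrays. Most of these calls were lost when the control arrays were added to the fit: on all 17 arrays 5 of the 18 passed (Pfkl, Pdk1, Bnip3, P4ha1 and Egln3), against 4.03% of all genes, and 4 of the 13 (Pfkl, Pdk1, P4ha1 and Egln3), against 3.89%. With only the groups of the comparison, 8 genes passed against dnSnf2h, and the share of all genes in that fit is not given here. Between dnChd4 and dnSnf2h 0 genes differed in limma, with 2 below 0.05 before adjustment, against 0.015% of all genes, and Ldhb came closest (-0.27, SE 0.107; adjusted p = 0.569).

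**Figure D4:**
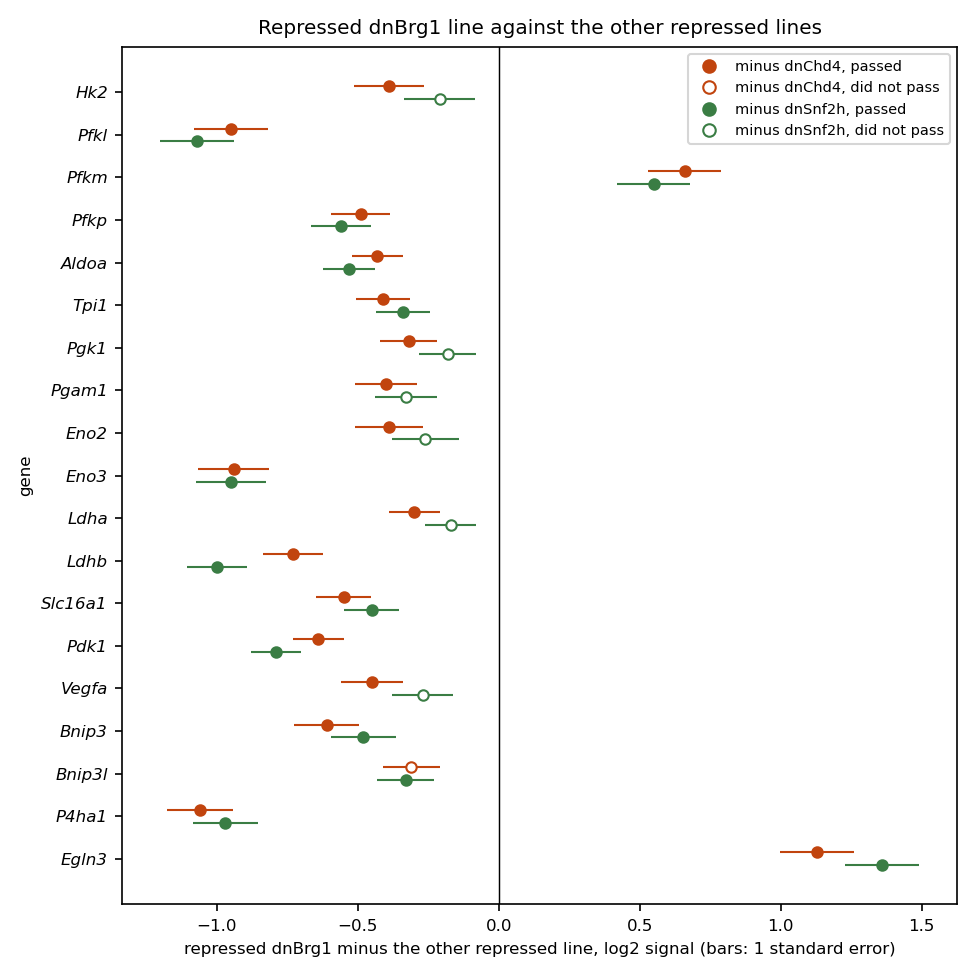
Repressed dnBrg1 minus the repressed dnChd4 or dnSnf2h line (log2 signal, bars of 1 standard error) for the 19 genes that passed in at least 1 of the comparisons, with filled points for an adjusted p under 0.05. Egln3 and Pfkm are higher in repressed dnBrg1 cells, and the other 17 lie below 0 in both.

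The largest differences were in P4ha1, Pfkl, Eno3, Ldhb and Egln3. P4ha1 read 9.09 and 8.78 in repressed dnBrg1 cells, 9.97 and 10.02 in dnChd4 and 9.81 and 10.01 in dnSnf2h cells, at -1.06 (adjusted p = 2.54e-05) and -0.97 (adjusted p = 6.31e-05). Pfkl read 8.21 and 8.19 against 8.91 and 9.40 and against 9.18 and 9.37, at -0.95 (adjusted p = 0.000172) and -1.07 (adjusted p = 7.13e-05). Eno3 was at -0.94 and -0.95 (adjusted p = 0.000141 and 0.000149), so the dnBrg1 line started from a lower Eno3 signal and fell further at induction. Ldhb was at -0.73 and -1.0 (adjusted p = 0.000321 and 2.28e-05), and its second probe set did not pass in either comparison. Egln3, a HIF prolyl hydroxylase that hypoxia itself raises, read 7.01 and 6.59 in repressed dnBrg1 cells against 5.58 and 5.75 and against 5.52 and 5.35, higher by 1.13 and 1.36 (adjusted p = 4.16e-05 and 8.23e-06). The induced dnBrg1 arrays read 6.75 and 6.62 for Egln3, so the line stood apart in both states.

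Of the remaining genes, Pfkm was higher in repressed dnBrg1 cells by 0.66 and 0.55, and Pdk1 (-0.64 and -0.79), Bnip3 (-0.61 and -0.48), Slc16a1 (-0.55 and -0.45), Pfkp (-0.49 and -0.56), Aldoa (-0.43 and -0.53) and Tpi1 (-0.41 and -0.34) were lower than in repressed dnChd4 and dnSnf2h cells. Vegfa, Pgam1, Hk2, Eno2, Pgk1 and Ldha were lower than in dnChd4 cells alone, at -0.45, -0.40, -0.39, -0.39, -0.32 and -0.30, and Bnip3l was lower than in dnSnf2h cells alone, at -0.33. Whether these 7 differed between the comparisons was not tested beyond the comparison of the repressed dnChd4 and dnSnf2h lines. Against dnChd4, 9 of the 18 calls held with each array left out, and the count was 9 without dnChd4 repressed 2 and 11 without dnBrg1 repressed 2. Hk2, Pfkp, Aldoa, Tpi1, Pgk1, Pgam1, Eno2, Ldha and Vegfa were lost without dnChd4 repressed 2, and all of these but Aldoa without dnBrg1 repressed 2. Pgam1 was lost without dnBrg1 repressed 1 too, and Hk2, Pgk1, Eno2 and Ldha were lost without most of the dnBrg1 and dnChd4 arrays, with an adjusted p up to 0.546, for Hk2. Against dnSnf2h, 9 of 13 held. Pfkm was lost without dnBrg1 repressed 1 or dnSnf2h repressed 1, Tpi1 without these or dnBrg1 repressed 2, Bnip3 without dnBrg1 repressed 2, and Bnip3l without any 1 of 9 arrays (adjusted p up to 0.109, 0.154, 0.107 and 0.259). Of 4 endothelial markers, 1 differed with these lines: the cadherin Cdh5 read 3.86 and 4.47 in repressed dnBrg1 cells, 8.12 and 8.08 in dnChd4 and 7.79 and 8 in dnSnf2h cells, and between 7.70 and 7.80 on the control arrays. The mean log2 level of the other 3 was between 4.48 and 4.54, 4.51 and 4.54, and 4.30 and 4.47 in repressed dnBrg1, dnChd4 and dnSnf2h cells, with Pecam1 and Tek among the dimmest 30% of genes. Krt14 was lower in repressed dnBrg1 cells too, at -1.43 and -1.55 against dnChd4 and dnSnf2h, and Lyz2 and Cd68 were higher than in dnChd4 cells, by 1.26 and 0.58. Of the 10 fibroblast or mesenchymal markers, 3 were lower in each comparison (Col1a2, Pdgfrb and S100a4) and Pdgfra was higher than in dnChd4 cells. Over all genes, 14.4% differed in either direction against dnChd4 and 14.3% against dnSnf2h. The part of these markers in the result was not tested.

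Against the control line, averaged over repressed and induced arrays on all 17, 12 of the 34 genes differed in dnBrg1 cells, 2 higher and 10 lower (35.3%), against 29.8% of all genes, a share near that of all genes. P4ha1 (-0.97, SE 0.0852; adjusted p = 5.55e-06), Eno3 (-1.61; adjusted p = 2.06e-05), Pfkl (-0.85; adjusted p = 2.39e-05) and Ldhb (-1.45; adjusted p = 0.00131) were lower, with Eno2 (-0.90), Aldoc (-0.52), Aldoa (-0.47), Pgam1 (-0.35), Pdk1 (-0.34) and Tpi1 (-0.33). Egln3 (1.04; adjusted p = 6.25e-05) and Pfkm (0.38) were higher. P4ha1 read 10.05 to 10.32 on the 5 control arrays and 8.78 to 9.54 on the 4 dnBrg1 arrays, so the lines did not overlap. Pfkm held in 6 of 17 fits with 1 array left out. It was lost without control repressed 2, any 1 of the 4 dnBrg1 or 4 dnChd4 arrays or either induced dnSnf2h array (adjusted p up to 0.152), and with the replicate block or median centring. Tpi1 was lost without control repressed 2 or any 1 of the dnBrg1 arrays (up to 0.111) and with the replicate block, and Pgam1 without control repressed 2, dnBrg1 repressed 1 or either induced dnBrg1 array (up to 0.0768). The other 9 held with each array left out. On 15 arrays 20 genes differed, 5 higher and 15 lower, against 41.6% of all genes.

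In dnChd4 cells 2 genes differed from the control line (5.88%), against 13.6% of all genes: Ndrg1 at 1.13 (adjusted p = 0.0367) and Slc16a3 at -0.24 (adjusted p = 0.0377). Both lay close to the threshold, and Slc16a3 held in 5 and Ndrg1 in 4 of 17 fits with 1 array left out. The count was 0 without control induced 2 or 3 or any 1 of the 4 dnChd4 arrays. It was also 0 without any 1 of the induced dnBrg1 or dnSnf2h arrays. The count was 1 without control repressed 1 or either repressed dnBrg1 array, and 4 without control repressed 2 or control induced 1. In dnSnf2h cells 3 genes differed (8.82%), against 20.5% of all genes: Aldoc at -0.58 (adjusted p = 0.00127), Slc16a3 at -0.27 (adjusted p = 0.0191) and Pdk1 at 0.26 (adjusted p = 0.0447). That count was 6 without control repressed 1, control repressed 2 or control induced 1, and 1 without dnSnf2h repressed 2 or either induced dnSnf2h array. Aldoc held in 17, Slc16a3 in 14 and Pdk1 in 2 of 17 fits with 1 array left out (Pdk1 adjusted p up to 0.135). Pdk1 was also lost with the replicate block, trended and robust eBayes, quantile normalization and median centring. On 15 arrays 5 and 12 genes differed in dnChd4 and dnSnf2h cells, against 26.1% and 33% of all genes.

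The transactivator alone was assayed by the control induction. As labelled, 0 of the 34 genes and 0% of all genes passed in limma, with 0 of the 34 at an unadjusted p under 0.05, and Pfkl came closest (0.21, SE 0.106; adjusted p = 1). The labelled groups were themselves split. Ndrg1 read 8.47 and 9.68 on the control repressed arrays and 9.92, 8.17 and 8.16 on the induced ones, Hk2 read 7.32 and 8.55, then 8.71, 7.20 and 7.19, and Vegfa read 8.43 and 9.38, then 9.30, 8.28 and 8.29. Control repressed 1 thus sat with control induced 2 and 3, and control repressed 2 with control induced 1, for each of these genes. Without control repressed 1 and control induced 1, 18 of the 34 genes passed, 5 higher and 13 lower, against 26.6% of all genes, but these 15 arrays leave 1 control repressed array, whose spread is assumed to be that of the other groups, and the direction follows from which arrays are left out. In that fit Ndrg1 was at -1.52, Hk2 at -1.35, Vegfa at -1.09, Pfkp at -1.08 and Ldha at -0.47, and Ldhb was at 1.35, Eno2 at 0.99 and Pfkfb4 at 0.90.

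Whether a dominant-negative induction differed from the control induction was therefore asked on both sets of arrays. On all 17, 0 of the 34 genes differed in limma for dnBrg1, dnChd4 or dnSnf2h, against 0.0903%, 0.0401% and 0% of all genes, with 3, 2 and 1 below 0.05 before adjustment. The gene with the smallest p was Eno3 for dnBrg1 (-1.45, SE 0.331; adjusted p = 0.286), P4ha2 for dnChd4 (0.63, SE 0.225; adjusted p = 0.952) and Pkm for dnSnf2h (-0.51, SE 0.221; adjusted p = 0.844). The dnBrg1 count was 2 without control repressed 2. On 15 arrays 9 genes differed for dnBrg1, 6 higher and 3 lower, against 6.95% of all genes: Hk2 (1.14), Vegfa (0.90), Bnip3 (0.84), Pgam1 (0.72), Pfkp (0.60) and Slc16a1 (0.59) were higher relative to the control change, and Eno2 (-1.07), Ldhb (-1.05) and Eno3 (-0.84) lower. For dnChd4 1 gene differed (Ndrg1, 0.76), against 0.818% of all genes, and for dnSnf2h 1 (Ldhb, -0.73), against 2.08%. The differences on 15 arrays, those of dnBrg1 included, rest on 1 control repressed array. With the control labels in doubt, these comparisons cannot separate the dominant-negative proteins from drug withdrawal and the transactivator in dnBrg1, dnChd4 or dnSnf2h cells.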

How the data were processed

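The authors' deposited values, 1 per probe set and array on 17 arrays, were used on the log2 scale on which they were judged to be from their range (2.02 to 14.86, array medians 5.48 to 5.63, no value missing). Per the submitters' processing notes they were made with Affymetrix Expression Console, whose version, summary method, normalization and genome build were not given in the sources used here. An array gives no read depth, and the number of arrays limits the precision. The platform annotation gave 21789 of 35557 probe sets a single symbol, 1621 more than 1 and 12147 none. The gene table held 21698 of the singly named ones by gene number, with 0 symbols to update, and the brightest probe set of each gene left 19938 genes.

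Group means were fitted to the unscaled values with lmFit, contrasts.fit and eBayes of limma 3.58.1 in R 4.3.3. Benjamini-Hochberg adjustment ran over all 19938 genes at a threshold of 0.05, and limma gave every adjusted p printed. Inductions and comparisons among dominant-negative lines used 12 arrays and 6 group means. The control induction used the 5 control arrays, and comparisons with the control line all 17. The fit was tested on simulated data. Named genes were those past the threshold in a comparison, or the smallest p where none passed, with values on each array for changes of at least 1.5-fold in an induction, and up to 3 genes of each further pathway list by smallest adjusted p. The members, lists and tests were chosen with earlier results of these data known. Alternatives were all 17 or 15 arrays, only the groups of a comparison, trended and robust eBayes, a block for the replicate number, removal of the dimmest 30% of genes (mean under 4.77), quantile normalization, median centring, each array left out in turn, and the dimmest probe set of each gene.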

Additional observations from a re-analysis of the deposited data

Results flagged for a closer look

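The change at induction differed between lines, by a test of the difference itself, for 6 genes between dnBrg1 and dnChd4 cells and for 2 between dnBrg1 and dnSnf2h cells. Between dnBrg1 and dnChd4 the differences (dnBrg1 change minus dnChd4 change, log2) were -1.51 for Eno3, 1.18 for Bnip3, -1.05 for Eno2, -0.74 for P4ha2, 0.69 for Vegfa and -0.68 for Ldhb. Between dnBrg1 and dnSnf2h they were 1.04 for Bnip3 and -0.99 for Eno3.

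These tests share the dnBrg1 arrays. On all 17 arrays Bnip3 between dnBrg1 and dnChd4 was the 1 difference that passed (adjusted p = 0.0201, with a range of 0.000523 to 0.0201 over its 20 alternatives).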

How the results depend on the processing

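The alternatives reversed the direction of no call of a named gene and ended many. With all 17 arrays in the fit, the count of genes called fell from 9 to 2 for dnBrg1 induction, from 16 and 15 to 0 for dnChd4 and dnSnf2h induction, from 6 to 1 and from 2 to 0 for the differences of dnBrg1 from dnChd4 and dnSnf2h induction, and from 18 to 5 and from 13 to 4 for the repressed dnBrg1 line against dnChd4 and dnSnf2h. With only the groups of the comparison, the count was 8 for dnSnf2h induction, 1 for the difference of dnBrg1 from dnSnf2h induction and 8 for repressed dnBrg1 against dnSnf2h. Median centring gave 3 for the difference of dnBrg1 from dnChd4 induction, and the dimmest probe set of each gene, an alternative chosen after seeing the data, gave 1 for that of dnBrg1 from dnSnf2h. For these 3 alternatives the shares of all genes are not given here, so the counts were not set against those of all genes. On 15 arrays the counts were 18 for control induction, 9, 1 and 1 for dnBrg1, dnChd4 and dnSnf2h induction minus control induction, and 20, 5 and 12 for the dnBrg1, dnChd4 and dnSnf2h lines minus the control line.

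With 1 array left out in turn, the counts ranged from 4 to 12, 6 to 17 and 11 to 17 for dnBrg1, dnChd4 and dnSnf2h induction, 0 to 0 for control induction, 3 to 7, 1 to 3 and 0 to 1 for the differences of dnBrg1 from dnChd4, dnBrg1 from dnSnf2h and dnChd4 from dnSnf2h induction, 9 to 20, 10 to 15 and 0 to 0 for the same pairs of repressed lines, 0 to 2, 0 to 0 and 0 to 0 for dnBrg1, dnChd4 and dnSnf2h induction minus control induction, and 9 to 16, 0 to 4 and 1 to 6 for the lines minus the control line. The shares of all genes in the fits with 1 array left out are not given here.

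Replicate numbers were not taken to pair the samples. Correlations of replicate 1 minus 2 between dominant-negative groups ran from -0.393 to 0.313. Between the repressed and induced groups of a line they were 0.016 for dnBrg1, 0.135 for dnChd4 and 0.313 for dnSnf2h. Pairing was thus not excluded, least of all in dnSnf2h cells. With the replicate number as a block, 85 of the 96 calls of single genes stayed past the threshold and 11 did not, and the count for the dnChd4 line minus the control line was 0 in place of 2. Removing the dimmest genes ended 0 of the 96, trended and robust eBayes 2, quantile normalization 8, median centring 11 and the dimmest probe set 13. The causes were not tested.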
